A study of Homo sapiens with 6 samples.

Results

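The 10 genes described here encode transcription regulators of plasma cells and B cells: *IRF4*, *PRDM1*, *POU2AF1*, *POU2F2*, *PAX5*, *BACH2*, *SPIB*, *MEF2C*, *TCF3* and *EBF1*. They were taken by name from the 58735 genes of the expression table, and each of the 10 names had 1 row. MM.1S is an established line of human multiple myeloma (MM), a cancer of plasma cells. The study sequenced RNA of MM.1S cells transfected with a control siRNA (si-NC, 3 libraries, called control) or with siRNA against *PRMT1*, an arginine methyltransferase (3 libraries, PRMT1 KD), each at 100 nM, and collected the cells at 72 h. Both groups went through the same transfection, the labels give no further treatment, and they do not say whether the 3 libraries of a group came from separate cultures. The study's methods call the replicates of its experiments biological but dependent, and do not speak of the RNA-seq libraries on their own, so the p-values measure the spread between these libraries only, which may be technical. The question was whether the level of these regulators differed between PRMT1 KD and control cells.

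A B cell becomes a plasma cell when IRF4 and PRDM1 (also called BLIMP1) take over from the factors that hold the B cell state. PAX5, EBF1, TCF3, SPIB and BACH2 keep B cell genes on or plasma cell genes off, PRDM1 switches several of them off, and IRF4 switches on PRDM1. POU2F2 (Oct-2) binds the octamer sequence of immunoglobulin promoters together with its coactivator POU2AF1 (OCA-B), and MEF2C is a MADS-box factor of the B cell and muscle lineages. Myeloma cells are known to depend on IRF4 and on POU2AF1.

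The start regions of the members differed in base composition. The set of RefSeq (GRCh38.p14) windows used here held 16 for 9 of the 10 members and none for POU2AF1. Each spanned 300 bases, with 250 before and 50 from the annotated start. A set of 7 letter patterns tied to these factors or to core promoters was searched on both strands: the octamer ATGCAAAT, the E-box CANNTG bound by E proteins such as TCF3 and its form CAGCTG, the interferon response element and the Ets and interferon composite element, both bound by IRF factors, the TATA box TATAAA and the CRE TGACGTCA. A set of 3 windows is printed 5′ to 3′ on the strand of the gene, in lower case with any such match other than the general E-box CANNTG in capitals, because they belong to the most abundant member (*IRF4*, chr6:391502-391801, plus strand), to the member with the smallest adjusted p (*MEF2C*, chr5:88824295-88824594, minus strand) and to the member that was higher in PRMT1 KD without overlap (*TCF3*, chr19:1652566-1652865, minus strand).
IRF4: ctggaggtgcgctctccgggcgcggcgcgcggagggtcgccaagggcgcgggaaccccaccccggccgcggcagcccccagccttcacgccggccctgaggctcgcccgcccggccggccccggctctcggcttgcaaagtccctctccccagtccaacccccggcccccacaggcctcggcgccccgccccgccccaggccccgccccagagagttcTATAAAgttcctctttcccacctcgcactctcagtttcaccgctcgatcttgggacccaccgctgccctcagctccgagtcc
MEF2C: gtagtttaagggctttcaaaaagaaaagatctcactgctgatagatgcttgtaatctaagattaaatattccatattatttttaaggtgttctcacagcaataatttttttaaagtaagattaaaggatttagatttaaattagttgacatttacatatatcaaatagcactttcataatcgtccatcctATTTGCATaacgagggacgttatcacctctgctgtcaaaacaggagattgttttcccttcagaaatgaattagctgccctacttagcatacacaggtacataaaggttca
TCF3: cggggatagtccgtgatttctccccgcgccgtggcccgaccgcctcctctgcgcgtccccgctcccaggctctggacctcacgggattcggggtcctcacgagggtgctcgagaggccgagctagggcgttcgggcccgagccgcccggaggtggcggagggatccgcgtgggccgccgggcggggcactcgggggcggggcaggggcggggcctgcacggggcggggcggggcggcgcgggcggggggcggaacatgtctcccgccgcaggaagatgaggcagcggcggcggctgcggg
The IRF4 window had 74.0% G and C and a TATA box whose first base lay 32 bases before the start (-32). The TCF3 window had 78.3% G and C with 43 CG pairs and held none of these 7 patterns. The 7 windows of MEF2C had 28.7% to 64.7% G and C. The one shown was chosen because it alone held the octamer, on the other strand at -60, and had 32.0% G and C. The octamer there reads ATTTGCAT. The gene-level values do not say which of the 7 starts was used. Over all 35116 RefSeq windows the median was 58.7% G and C, the octamer was found in 1.77%, CANNTG in 68.7%, CAGCTG in 17.9%, the interferon response element in 3.57%, the composite element in 2.82%, TATAAA in 11.5% and the CRE in 1.85%. Among the 16 member windows the octamer was found in 1, CANNTG in 12, CAGCTG in 3 (2 of MEF2C and 1 of EBF1), TATAAA in 3 (IRF4, PAX5 and SPIB), the composite element in 1 (EBF1), the CRE in 1 (BACH2) and the interferon response element in 0. Such matches describe the sequence and show no binding.

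Facts of the libraries come before the results. FPKM values (fragments on a gene per kilobase of its length and per sequencing depth) corresponded to whole reads, within 0.01 of a read for 100% of the values above 0, which gave back 14439217 to 16465026 reads on genes per library. *PRMT1* was at 58.9 to 62.8 FPKM in control and at 12.5 to 14.0 FPKM in PRMT1 KD, 21.7% of the control mean (log2 fold change -2.13, limma adjusted p = 2.77e-05). Replicate 3 stood apart in both groups. The chi-square per gene was 2.46 between control replicates 1 and 2 and 2.92 between PRMT1 KD replicates 1 and 2, but 5.31 to 7.85 in the 4 within-group pairs that include a replicate 3. The 10 plasma cell markers summed to 946 to 1027 FPKM in control and 961 to 1130 in PRMT1 KD. Not all were high, as 8 of the 10 had a mean of at least 1 FPKM and 6 of at least 5 FPKM. The 10 mature B cell markers summed to 12.4 to 13.7 and 8.90 to 11.2 FPKM, mostly *CD79B*, with *MS4A1* and *FCRL1* at 0 in all 6 libraries. The 6 T and NK cell markers summed to 37.3 to 40.8 FPKM in control and 40.5 to 43.2 in PRMT1 KD, mostly *CD3E* at 33.4 FPKM in control. Of these 6, 3 had a mean of at least 1 FPKM, and *CD8A* was at 0. The 5 myeloid, 3 erythroid and 3 stromal markers each summed to under 1 FPKM in every library. MM.1S is known for high *MAF*, which was listed at 0 reads in all 6 libraries, where 3 reads would be 0.0260 to 0.0299 FPKM. Further genes were looked up after the *MAF* value was seen. Of the MAF targets, *ITGB7* was at 0.0135 to 0.109 FPKM and the cyclin *CCND2* at 12.9 to 13.6 FPKM. The cyclin *CCND1* was at 107 to 116 FPKM in control and 98.6 to 102 FPKM in PRMT1 KD (limma adjusted p = 0.139). *FGFR3* was under 0.1 FPKM. *IKZF1*, which was not tested, was at 0.503 to 0.522 FPKM in control and 0.648 to 0.792 FPKM in PRMT1 KD. The results are therefore those of libraries labelled MM.1S, and the identity of the cells was not tested further.

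In control cells the 10 regulators spanned from among the highest to no reads at all. Mean control levels ran from *IRF4* at 116 FPKM and *POU2AF1* at 80.3, through *MEF2C* at 42.1, *TCF3* at 32.4 and *PRDM1* at 18.1, down to *POU2F2* at 1.47, *PAX5* at 1.11, *SPIB* at 0.209 and *BACH2* at 0.00617 FPKM, with *EBF1* at 0. FPKM is per length, with a single length per gene, so the order between genes also rests on that length. Whether it matches the transcripts present was not tested. Each member was above the next in all 3 control libraries, without overlap, except *BACH2* and *EBF1*, which overlapped. The closest neighbours were *MEF2C* and *TCF3*, with means 1.30 times apart, and *POU2F2* and *PAX5*, 1.32 times apart. Among the 13585 genes with a mean of at least 1 FPKM over the 6 libraries, the control level of *IRF4* was above 98.0% of genes and that of *POU2AF1* above 96.9%. *MEF2C* (92.8%), *TCF3* (90.2%) and *PRDM1* (80.5%) followed, whereas *POU2F2* (9.83%) and *PAX5* (3.21%) lay near the lower end. The other 3 members were under 1 FPKM and were not tested.

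**Figure D1:**
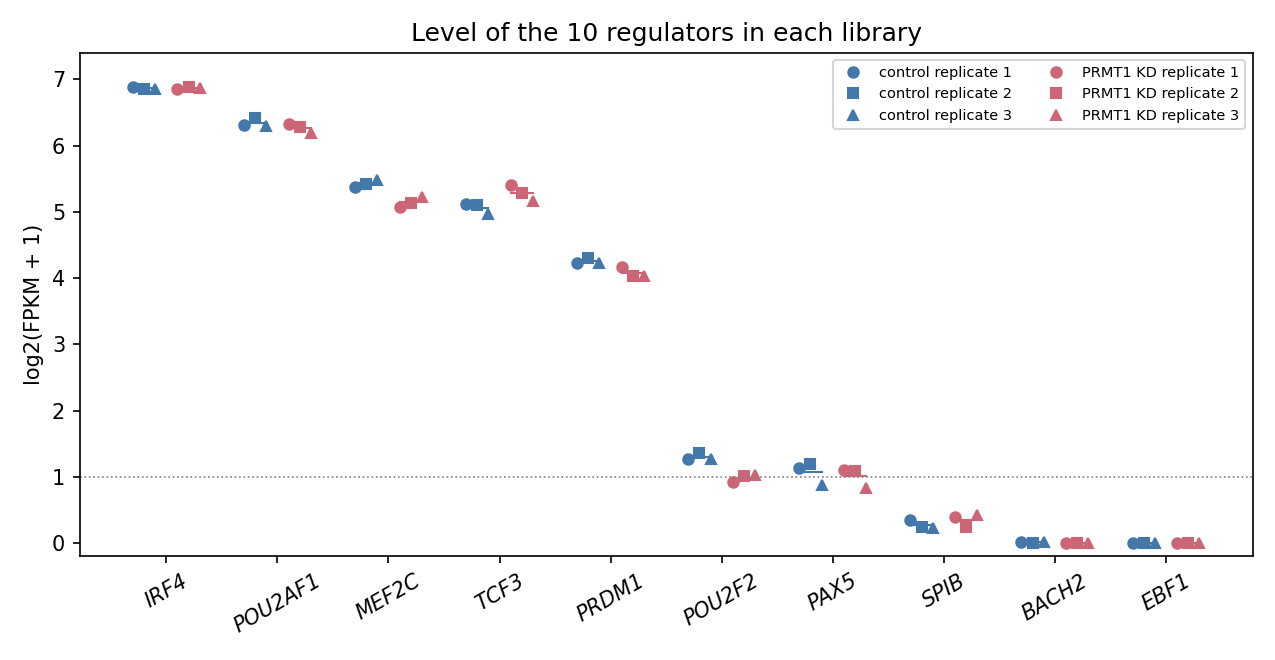
Level of the 10 regulators as log2(FPKM + 1) in each of the 6 libraries, with control in blue, PRMT1 KD in red, 1 symbol per replicate and a line at the value of each group's mean FPKM; the dotted line marks 1 FPKM. The first 5 genes lay between 15.3 and 118 FPKM in every library, and the last 3 stayed under 0.4 FPKM.

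None of the 7 members tested passed the test between PRMT1 KD and control cells. *MEF2C*, *POU2F2* and *PRDM1* were lower and *TCF3* higher in all 3 PRMT1 KD libraries than in any control library, *IRF4* had group means less than 1 FPKM apart, and *POU2AF1* and *PAX5* overlapped between groups. By limma on log2(FPKM + 1), with Benjamini-Hochberg adjustment over the 13585 genes, 0 of the 7 had an adjusted p under 0.05, against 2.05% of all genes tested (279 genes). An unadjusted p under 0.05 was found for 4 of 7, 3 lower and 1 higher, against 19.5% of all genes (9.47% lower and 10.1% higher). The groups did not overlap for the same 4 of 7, against 25.9% of all genes. The median log2 fold change was -0.08 over the 7 members and 0.01 over all genes. That of the members was -0.04 without control replicate 2 or without PRMT1 KD replicate 3, and -0.16 without control replicate 3. With limma's voom on the reads worked back, which weights each value by its depth, 2 of 7 had an adjusted p under 0.05, *MEF2C* and *POU2F2*, against 6.82% of all genes. In bulk RNA, fewer cells that express a gene and less of its RNA per cell cannot be told apart.

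**Figure D2:**
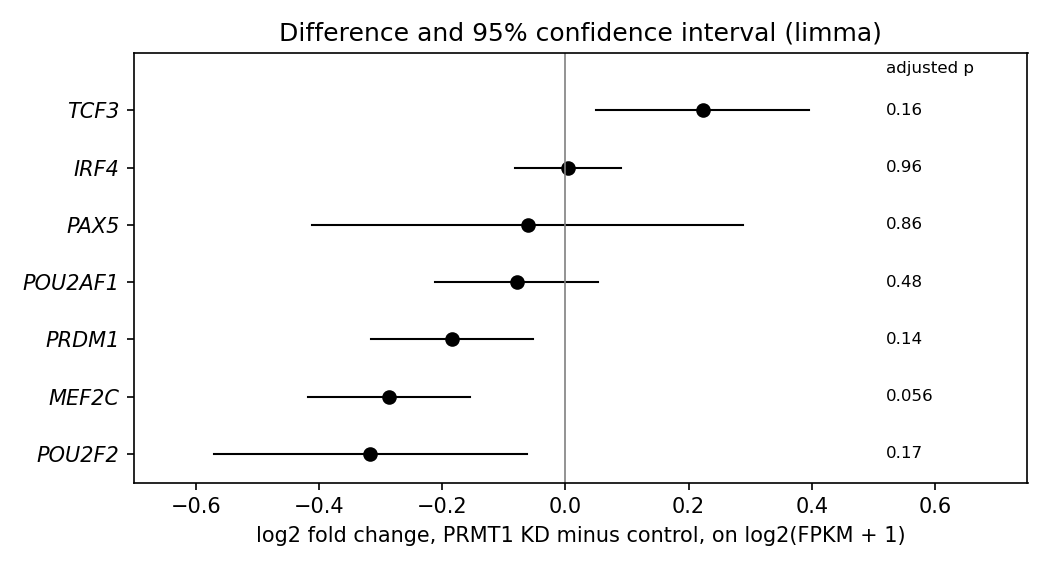
Log2 fold change (PRMT1 KD minus control, on log2(FPKM + 1)) of the 7 members tested, with the 95% confidence interval from limma as a line and the adjusted p at the right. The intervals of *MEF2C*, *POU2F2*, *PRDM1* and *TCF3* did not reach 0, and the smallest adjusted p was 0.0556 (*MEF2C*).

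*IRF4*, the regulator at the top of the plasma cell programme (ENSG00000137265, chromosome 6, 391739 to 411447, plus strand, hg38), was nearly level across all libraries. It measured 117, 115 and 115 FPKM in control replicates 1 to 3 and 115, 118 and 116 FPKM in PRMT1 KD replicates 1 to 3. The groups overlapped fully, and no library stood apart. The means were 116 ± 1.36 FPKM (SD, n = 3) and 116 ± 1.37 FPKM (SD, n = 3), on 9980 to 11453 reads per library. The log2 fold change was 0.00 with a 95% interval of -0.08 to 0.09 (limma adjusted p = 0.961), which corresponds to 0.945 to 1.06 times the control on that scale. Its coefficient of variation was 1.17% in control and 1.18% in PRMT1 KD, close to the 0.960% that counting alone gives at this depth, which made it the steadiest member measured. Its nearest protein-coding neighbour *DUSP22*, a phosphatase gene 40384 bases away, was at 25.5 to 26.8 FPKM in all 6 libraries (log2 fold change -0.02, limma adjusted p = 0.874).

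*PRDM1*, the repressor that closes the B cell programme (ENSG00000057657, chromosome 6, 106086320 to 106109939, plus strand), was lower in PRMT1 KD. It measured 17.8, 18.7 and 17.8 FPKM in control and 16.9, 15.4 and 15.3 FPKM in PRMT1 KD. Every PRMT1 KD library lay under every control library, and the gap between the nearest of them, 16.9 and 17.8, was smaller than the range within PRMT1 KD. The means were 18.1 ± 0.532 and 15.9 ± 0.901 FPKM (SD, n = 3 each), 87.5% of control. The log2 fold change was -0.18 (SE 0.0556, 95% interval -0.31 to -0.05), with a limma adjusted p of 0.136. *PRDM1* lies wholly inside *ATG5*, an autophagy gene on the opposite strand, and no source used here says whether reads were counted by strand. *ATG5* was at 5.52 to 6.06 FPKM in control and at 4.57 to 6.63 FPKM in PRMT1 KD (adjusted p = 0.581), and its part in the *PRDM1* value was not tested. Of 7 genes known to be repressed by PRDM1, among them *CIITA*, *BCL6*, *ID3*, *MYC* and the members *SPIB* and *PAX5*, 4 were tested and 1 was called by limma, *MYC*, against 2.05% of all genes tested. *MYC*, the growth regulator, was higher at 212 to 234 FPKM in control and 267 to 286 FPKM in PRMT1 KD (log2 fold change 0.32, limma adjusted p = 0.0399), a call lost in 9 of 16 alternatives, among them each of the 6 that leave out a library (adjusted p up to 0.170). The 4 genes tested went both ways, with log2 fold changes of 0.32 (*MYC*), 0.23 (*BCL6*), -0.02 (*ID3*) and -0.06 (*PAX5*). Their median was 0.11, and it was 0.06 without control replicate 3 and 0.07 without PRMT1 KD replicate 1. *BCL6*, the germinal centre repressor, was at 1.07 ± 0.161 and 1.41 ± 0.0507 FPKM (adjusted p = 0.329), and *CIITA*, the regulator of MHC class II genes, stayed under 0.4 FPKM.

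*POU2AF1*, the B cell coactivator of the octamer factors (ENSG00000110777, chromosome 11, 111352252 to 111455630, minus strand), was the second most abundant member. It measured 78.2, 84.9 and 77.9 FPKM in control and 79.3, 76.8 and 71.9 FPKM in PRMT1 KD. Control replicate 2 was the highest and PRMT1 KD replicate 3 the lowest library, and the groups overlapped. The means were 80.3 ± 3.98 and 76.0 ± 3.75 FPKM (SD, n = 3 each), 94.6% of control, and the log2 fold change was -0.08 (95% interval -0.21 to 0.05, limma adjusted p = 0.483). It was -0.04 without control replicate 2 and also without PRMT1 KD replicate 3. The interval covers 0.864 to 1.04 times the control on the log2(FPKM + 1) scale.

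*POU2F2*, the octamer-binding factor itself (ENSG00000028277, chromosome 19, 42086110 to 42196585, minus strand), had the greatest relative difference of the 7 members. It measured 1.42, 1.57 and 1.41 FPKM in control, from 212 to 229 reads, and 0.901, 1.01 and 1.03 FPKM in PRMT1 KD, from 132 to 142 reads. The groups were well apart, with the lowest control library at 1.41 and the highest PRMT1 KD library at 1.03. The PRMT1 KD mean of 0.980 ± 0.0686 FPKM was 66.8% of the control mean of 1.47 ± 0.0863 FPKM (SD, n = 3 each). On log2(FPKM + 1), which understates the change of a gene at this level, the log2 fold change was -0.32 (SE 0.107, limma adjusted p = 0.169). With a pseudocount of 0.1 it was -0.54 (adjusted p = 0.195), and with voom it was -0.58 (adjusted p = 0.0102), so its call depends on the test. An antisense-strand transcript inside *POU2F2*, *AC010247.1*, was also lower in all 3 PRMT1 KD libraries, at 0.472 to 1.31 FPKM in control and 0.0774 to 0.338 FPKM in PRMT1 KD, on 1 to 19 reads. Whether reads of one were counted for the other was not tested.

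*POU2F1*, the octamer factor found in most cell types, had a higher FPKM than *POU2F2* in these cells. It measured 4.19, 3.78 and 4.12 FPKM in control and 4.19, 4.77 and 4.39 FPKM in PRMT1 KD (log2 fold change 0.11, limma adjusted p = 0.432). The share of *POU2F2* in the summed FPKM of *POU2F1*, *POU2F2* and *POU2F3* was 25.3%, 29.3% and 25.4% in control and 17.7%, 17.4% and 18.9% in PRMT1 KD, with no overlap. The mean share went from 26.7% ± 2.28 to 18.0% ± 0.778 (SD, n = 3 each, exact two-sided permutation p = 0.1, the smallest that 3 libraries against 3 allow). The sum of the 3 genes was 5.51 ± 0.142 FPKM in control and 5.44 ± 0.353 FPKM in PRMT1 KD (exact permutation p = 0.8). These family sums were chosen after the values were seen.

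*MEF2C* (ENSG00000081189, chromosome 5, 88717117 to 88904257, minus strand) had the smallest p of the members. It measured 40.7, 41.9 and 43.7 FPKM in control and 32.5, 34.2 and 36.4 FPKM in PRMT1 KD, on 5789 to 8495 reads. All PRMT1 KD libraries lay under all control libraries, and replicate 3 was the highest of both groups. The means were 42.1 ± 1.52 and 34.4 ± 1.95 FPKM (SD, n = 3 each), 81.6% of control. The log2 fold change was -0.29 (SE 0.0554, 95% interval -0.42 to -0.16), and the limma adjusted p of 0.0556 was just over the threshold. It was under it in 4 alternatives, with adjusted p of 0.0282 among genes with a mean of at least 5 FPKM, 0.0497 after rescaling to TPM, 0.0441 with a replicate block and 0.00495 with voom. It was over it in the others, up to 0.177 without control replicate 2, and was 0.0757 with both replicate 3 libraries left out. The antisense gene *MEF2C-AS1*, which overlaps *MEF2C*, was at 2.26 to 2.73 FPKM in control and 1.97 to 2.29 FPKM in PRMT1 KD (adjusted p = 0.394).

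Other MEF2 genes did not pass the test. *MEF2D* was at 28.3 to 31.5 FPKM in control and 28.1 to 32.6 FPKM in PRMT1 KD (log2 fold change 0.03, limma adjusted p = 0.886), and *MEF2A* at 16.7 to 18.6 and 15.4 to 17.2 FPKM (log2 fold change -0.10, adjusted p = 0.431). *MEF2B*, mutated in germinal centre lymphoma, was under 0.4 FPKM. *MEF2C* made up 45.1%, 46.5% and 48.1% of the summed FPKM of the 4 genes in control and 40.4%, 40.8% and 44.4% in PRMT1 KD. The sum of the 4 was 90.5 ± 0.350 FPKM in control and 82.2 ± 1.66 FPKM in PRMT1 KD (SD, n = 3 each, exact permutation p = 0.1). The class IIa histone deacetylases that bind MEF2 factors were *HDAC4*, *HDAC5*, *HDAC7* and *HDAC9*. Of these 4, 0 were called by limma, 1 had an unadjusted p under 0.05 and 1 was called by voom, in both cases *HDAC9*, against 2.05%, 19.5% and 6.82% of all genes tested. Its limma adjusted p was 0.0995, at 3.50 ± 0.282 FPKM in control and 4.59 ± 0.348 FPKM in PRMT1 KD.

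*TCF3*, which encodes the E proteins E12 and E47 (ENSG00000071564, chromosome 19, 1609290 to 1652605, minus strand), was the 1 member that was higher in PRMT1 KD without overlap, and it did not pass the test. It measured 33.7, 33.3 and 30.2 FPKM in control and 41.2, 37.9 and 34.9 FPKM in PRMT1 KD, on 3038 to 4141 reads. The groups did not overlap, replicate 3 was the lowest of both, and the gap between the nearest libraries, 33.7 and 34.9, was smaller than the range within either group. The means were 32.4 ± 1.89 and 38.0 ± 3.18 FPKM (SD, n = 3 each), 117% of control. The log2 fold change was 0.22 (SE 0.0731, 95% interval 0.05 to 0.40, limma adjusted p = 0.158). With both replicate 3 libraries left out it was 0.23 (adjusted p = 0.106). The E protein gene *TCF12* was at 15.1 to 16.8 FPKM in control and 15.9 to 17.7 FPKM in PRMT1 KD (adjusted p = 0.620), and *TCF4*, the third E protein, at 0.536 ± 0.0350 and 0.593 ± 0.0737 FPKM. The share of *TCF3* in the 3 E proteins was 66.5% ± 2.59 in control and 68.8% ± 3.05 in PRMT1 KD (SD, n = 3 each, exact permutation p = 0.4). ID proteins pair with E proteins and keep them off DNA. *ID3* was at 8.01 ± 1.16 and 7.89 ± 0.689 FPKM and *ID1* at 5.08 ± 0.829 and 5.72 ± 0.526 FPKM, and neither passed the test (limma adjusted p = 0.958 and 0.510).

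**Figure D3:**
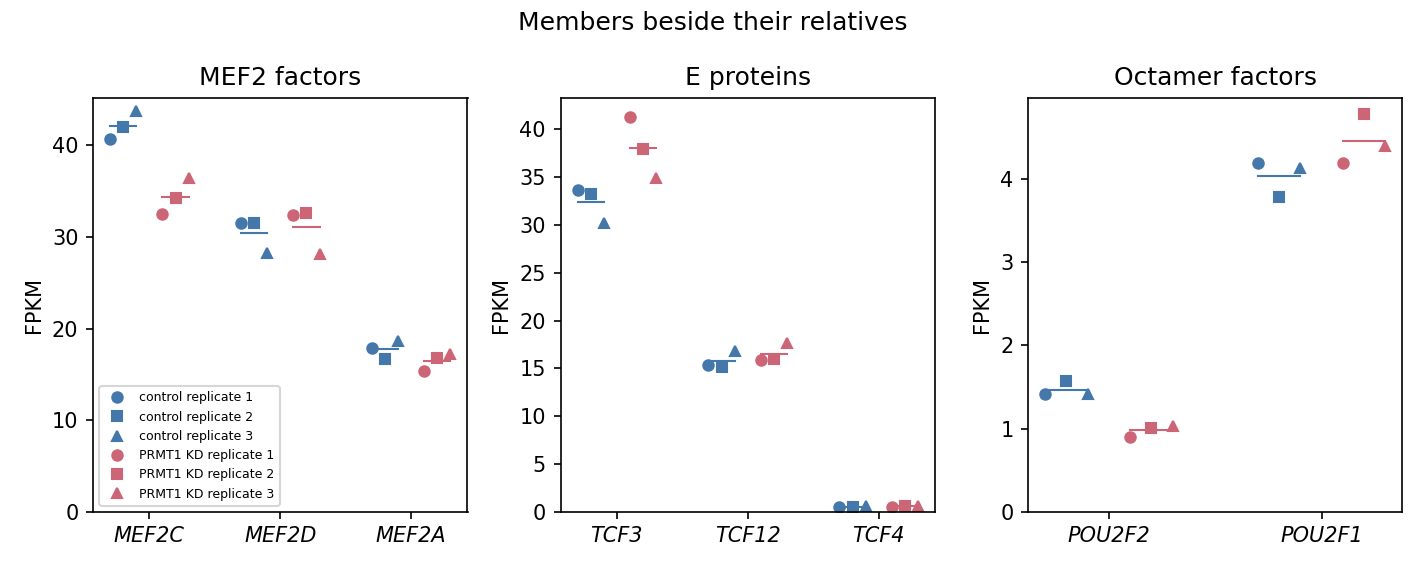
FPKM of *MEF2C*, *TCF3* and *POU2F2* beside related genes in each library, with control in blue, PRMT1 KD in red, 1 symbol per replicate and a line at each group's mean. *MEF2D*, *MEF2A*, *TCF12* and *POU2F1* overlapped between groups. The 3 members did not, and neither did 25.9% of all genes tested.

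*PAX5*, the factor that commits cells to the B lineage (ENSG00000196092, chromosome 9, 36833275 to 37034185, minus strand), was present at a low level in both groups. It measured 1.20, 1.30 and 0.836 FPKM in control and 1.15, 1.13 and 0.781 FPKM in PRMT1 KD, on 111 to 195 reads. Replicate 3 was lowest in both groups and the groups overlapped. The means were 1.11 ± 0.242 and 1.02 ± 0.207 FPKM (SD, n = 3 each). The spread, 21.8% of the mean in control and 20.3% in PRMT1 KD, was above the 7.95% that counting gives, and the log2 fold change of -0.06 had a 95% interval of -0.41 to 0.29 (limma adjusted p = 0.863). No reads fell on the antisense genes *AL450267.1* and *AL161781.2* inside *PAX5*.

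**Figure D4:**
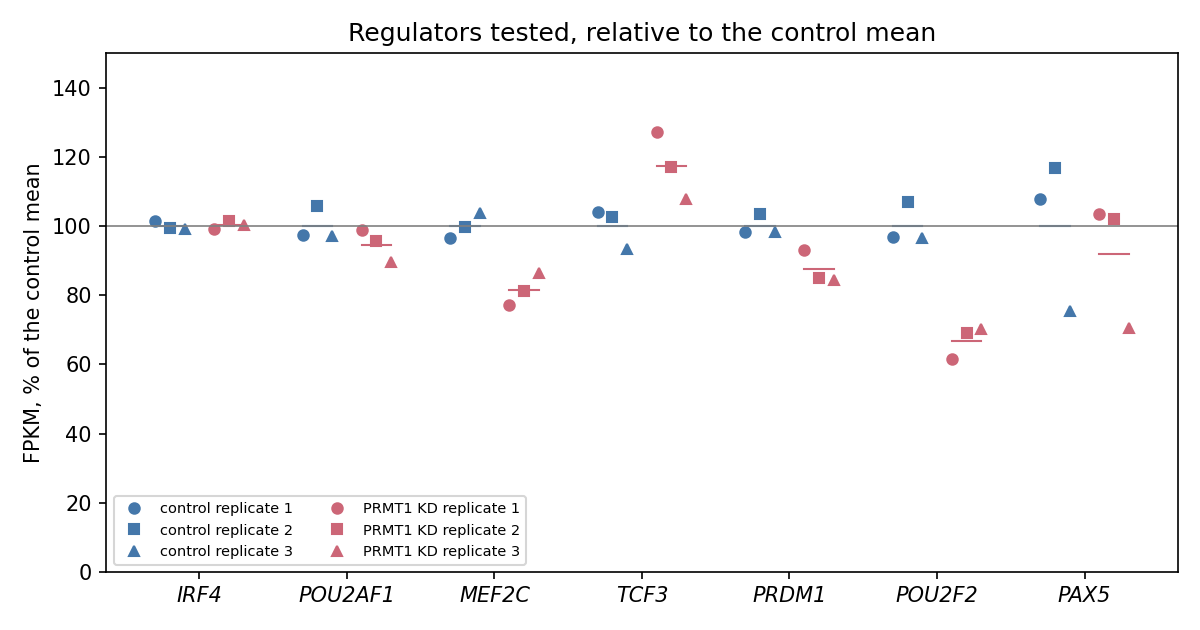
FPKM of the 7 members tested in each library as a percentage of the control mean of that gene, with control in blue, PRMT1 KD in red, 1 symbol per replicate and a line at each group's mean. The mean in PRMT1 KD ran from 66.8% (*POU2F2*) to 117% (*TCF3*), and replicate 3 was low for *PAX5* in both groups.

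*SPIB*, an Ets factor of mature B cells (ENSG00000269404, chromosome 19, 50418938 to 50431313, plus strand), rested on 11 to 22 reads per library. It measured 0.268, 0.188 and 0.170 FPKM in control and 0.311, 0.178 and 0.337 FPKM in PRMT1 KD, with overlapping groups (exact permutation p = 0.3). *BACH2*, the repressor of *PRDM1* in B cells (ENSG00000112182, chromosome 6, 89926529 to 90296908, minus strand), had 2, 0 and 1 reads in control and 0 in each PRMT1 KD library. *EBF1*, the early B cell factor (ENSG00000164330, chromosome 5, 158695916 to 159099761, minus strand), had 0 reads in all 6 libraries. For these lengths, 3 reads in a library would be 0.0185 to 0.0213 FPKM for *BACH2* and 0.0293 to 0.0337 FPKM for *EBF1*, so no difference was detectable for either at this depth. These limits cover counting error only.

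Genes that the B cell factors switch on were mostly near 0 FPKM. Of 16 genes that PAX5 and EBF1 activate in B cells, 3 had a mean of at least 1 FPKM, and 0 of these 3 had an adjusted p under 0.05 (limma; 1 had an unadjusted p under 0.05, and voom called 0), against 2.05%, 19.5% and 6.82% of all genes tested. *CD79B*, a chain of the B cell receptor, was at 10.4 ± 0.548 FPKM in control and 8.15 ± 0.844 FPKM in PRMT1 KD (log2 fold change -0.32, adjusted p = 0.0995). *BLK*, a B cell kinase, was at 3.90 ± 0.298 and 3.87 ± 0.320 FPKM, and *VPREB3* at 1.40 ± 0.220 and 0.793 ± 0.393 FPKM (adjusted p = 0.258). Groups did not overlap for 2 of the 3, *CD79B* and *VPREB3*, both lower, against 25.9% of all genes tested. The list median was -0.32. It was -0.15 without control replicate 2, over 2 genes, and -0.01 with no filter, over 13 genes. *CD79A*, another chain of the B cell receptor and a classical PAX5 target, was at 0.134 ± 0.0831 FPKM in control and 0.281 ± 0.222 FPKM in PRMT1 KD. Its groups overlapped, on 1 to 13 reads, and it was not tested.

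Of 7 genes that IRF4 activates in myeloma, all were tested, and 3 were called by limma, 2 higher and 1 lower, against 2.05% of all genes tested. *MYC* was higher, as given beside *PRDM1*. *CDK6*, a cell cycle kinase, measured 13.9, 13.0 and 15.1 FPKM in control and 20.4, 19.7 and 20.3 FPKM in PRMT1 KD (log2 fold change 0.50, SE 0.0613, limma adjusted p = 0.0240), lost in 8 of 16 alternatives (up to 0.132). *SCD*, a fatty acid desaturase, fell from 351, 348 and 319 FPKM to 274, 281 and 280 FPKM (log2 fold change -0.28, SE 0.0487, limma adjusted p = 0.0443). This call was lost in 9 of 16 alternatives, with the replicate block (adjusted p = 0.0595), with no filter (0.144), without the variance trend (0.0946), with both replicate 3 libraries left out (0.0605) and in all of those that leave out 1 library but the one without control replicate 3 (up to 0.182). *SQLE*, *SUB1* and *STAG2* did not pass (adjusted p of 0.781, 0.908 and 0.346), nor did *PRDM1*, the member on this list. The median of the list was 0.03, against 0.01 over all genes, and it ran from 0.01, without PRMT1 KD replicate 2, to 0.07, without PRMT1 KD replicate 1, was 0.02 without PRMT1 KD replicate 3 and 0.05 without control replicate 1, and turned to -0.01 with both replicate 3 libraries left out.

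Among 12 other plasma cell regulators, 8 were tested and 1 was called by limma, *KLF2*, against 2.05% of all genes tested. *KLF2*, a zinc finger factor of quiescent and homing lymphocytes, rose from 26.0, 26.9 and 24.4 FPKM to 40.8, 38.7 and 37.8 FPKM (log2 fold change 0.58, SE 0.0542, limma adjusted p = 0.0121), lost in 3 of 16 alternatives (up to 0.0856). *XBP1*, the factor of the secretory programme, was at 284 to 292 FPKM in control and 258 to 268 FPKM in PRMT1 KD (log2 fold change -0.13, adjusted p = 0.133). *ELL2*, the elongation factor that favours secreted immunoglobulin, was at 139 ± 8.81 and 156 ± 10.9 FPKM (adjusted p = 0.235), and *BHLHA15* at 56.6 ± 3.98 and 49.7 ± 6.47 FPKM (adjusted p = 0.346). The list median was 0.06, and with 1 library left out it ran from 0.02, without control replicate 3, to 0.09, without control replicate 1 or without PRMT1 KD replicate 3.

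Of 20 B cell and germinal centre regulators, 10 were tested and 2 were called by limma, both higher, against 2.05% of all genes tested. *MYB*, a progenitor factor, rose from 19.3, 19.2 and 21.2 FPKM to 30.8, 30.5 and 36.4 FPKM (log2 fold change 0.68, SE 0.0790, limma adjusted p = 0.0194), lost in 6 of 16 alternatives (up to 0.114). *BCOR*, a corepressor that binds BCL6, rose from 10.8, 10.6 and 10.5 FPKM to 13.8, 14.5 and 13.8 FPKM (log2 fold change 0.37, SE 0.0481, limma adjusted p = 0.0263), lost in 9 of 16 (up to 0.134). *FOXO1* was at 23.6 ± 0.984 and 23.3 ± 0.519 FPKM (adjusted p = 0.880). *LEF1*, *TCF12* and *RUNX1* had limma adjusted p of 0.129, 0.620 and 0.104, and voom also called *RUNX1*, at 8.17 ± 0.336 and 9.78 ± 0.536 FPKM. The list median was 0.12, and 0.07 with no filter.

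Of 40 relatives and partners of the members, 26 were tested and 1 was called by limma, *IRF5*, against 2.05% of all genes tested. *IRF5*, a relative of *IRF4* in innate signaling, fell from 5.56, 5.94 and 5.34 FPKM to 3.50, 2.89 and 3.11 FPKM (log2 fold change -0.67, SE 0.0785, limma adjusted p = 0.0202), lost in 6 of 15 alternatives (up to 0.118). *IRF4* made up 74.4%, 74.3% and 75.3% of the summed FPKM of the 9 *IRF* genes in control and 74.7%, 76.8% and 76.4% in PRMT1 KD (exact permutation p = 0.2). *BATF*, a partner of IRF4 on DNA, was lower in all 3 PRMT1 KD libraries, at 4.56, 4.62 and 4.51 FPKM against 3.34, 2.20 and 3.42 FPKM (log2 fold change -0.50, adjusted p = 0.104). Groups did not overlap for 7 of the 26 list genes tested, near the 25.9% of all genes tested. *SPI1*, the Ets partner of IRF4 and a relative of *SPIB*, was at 4.25 ± 0.209 and 3.60 ± 1.02 FPKM (adjusted p = 0.473). *BACH1*, a relative of *BACH2*, was at 7.53 ± 0.737 and 8.31 ± 0.759 FPKM (adjusted p = 0.485). The 3 relatives of *EBF1*, *EBF2*, *EBF3* and *EBF4*, were all under 1 FPKM in every library. The list median was 0.02, and with 1 library left out it ran from -0.02, without control replicate 3, to 0.06, without PRMT1 KD replicate 3, and was under 0 also without PRMT1 KD replicate 1.

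Among the plasma cell markers, 8 of 10 were tested and 1 was called by limma, against 2.05% of all genes tested. *SLAMF7*, a surface receptor of plasma cells and a target of antibody therapy, fell from 37.8, 39.0 and 37.1 FPKM to 23.4, 22.9 and 25.1 FPKM (log2 fold change -0.65, SE 0.0505, limma adjusted p = 0.00515). *JCHAIN*, *TNFRSF17* (BCMA), *MZB1* and *SDC1* (CD138) did not pass the test, with adjusted p of 0.500, 0.434, 0.243 and 0.934. *MZB1*, *CD38* and *DERL3* were higher in all 3 PRMT1 KD libraries than in any control library, at 108%, 128% and 130% of the control mean, with adjusted p of 0.243, 0.193 and 0.149. *CD28*, a costimulatory receptor that was not tested because its mean was under 1 FPKM, was lower in all 3, at 0.976 ± 0.197 FPKM in control and 0.635 ± 0.110 FPKM in PRMT1 KD. Groups did not overlap for 25.9% of all genes tested. The list median was 0.12, and it was 0.06 with no filter and 0.05 without PRMT1 KD replicate 3. With both replicate 3 libraries left out, 2 of the 8 list genes called, *MYB* and *SLAMF7*, kept an adjusted p under 0.05, as did 19 of the 279 genes called over the whole table. With 1 library left out, the number kept ran from 1, without control replicate 1 or without PRMT1 KD replicate 2, to 6, without control replicate 3, and *SLAMF7* was kept each time.

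**Figure D5:**
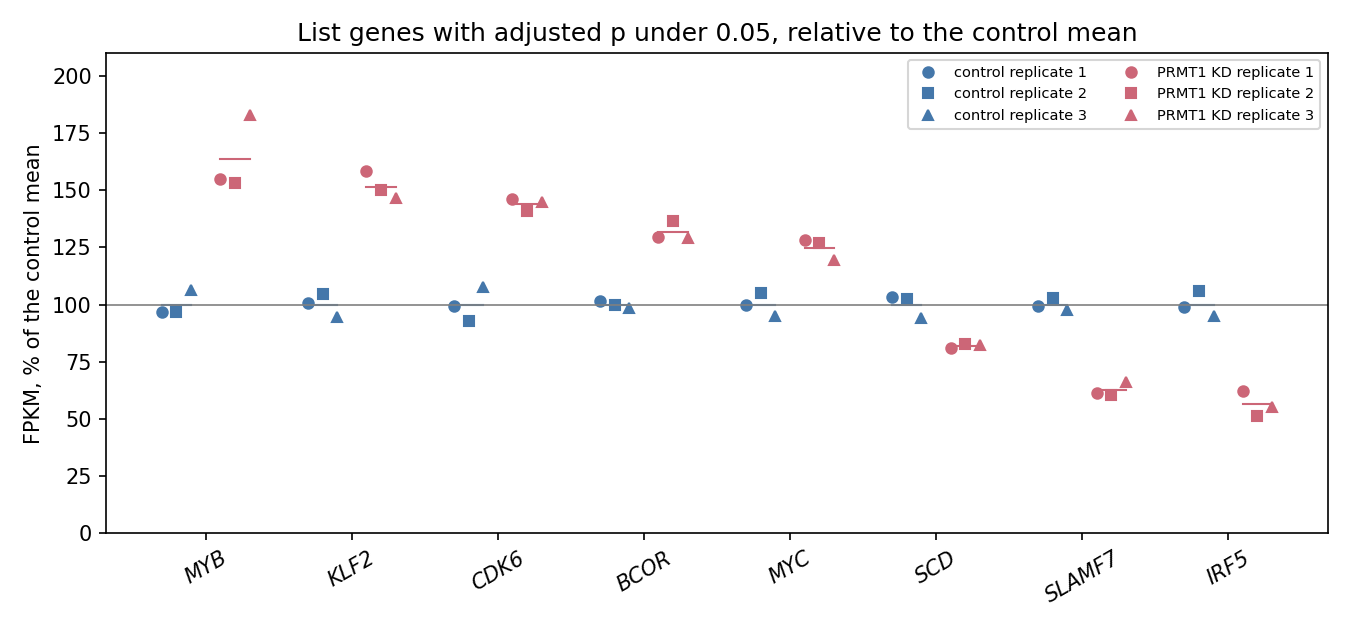
FPKM of the 8 list genes with an adjusted p under 0.05 in each library as a percentage of the gene's control mean, with control in blue, PRMT1 KD in red, 1 symbol per replicate and a line at each group's mean. *MYB*, *KLF2*, *CDK6*, *BCOR* and *MYC* were higher and *SCD*, *SLAMF7* and *IRF5* lower in all 3 PRMT1 KD libraries than in any control library.

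The genes whose pattern over the 6 libraries was nearest to 3 of the members were found by the smallest root mean square difference of centred log2(FPKM + 1), among 7710 genes with a mean of at least 5 FPKM. For *IRF4* these were *RCCD1*, *RAD23B* and *HARS2*, with differences of 0.0127, 0.0129 and 0.0138, all flat genes. For *PRDM1* they were *PI4K2A*, *HAGHL* and *MYO1C* (0.0194, 0.0207 and 0.0216), each lower in all 3 PRMT1 KD libraries. For *POU2AF1* they were *TTYH2*, *NEURL4* and *RHOT2* (0.00888, 0.0164 and 0.0176). The genes were chosen for their likeness to the member, so being flat or lower as it was follows from the choice. These are likenesses over 6 libraries only.

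The study's supplement lists 3 siRNAs against *PRMT1*, and the sources used here do not name the one used for the RNA-seq. Their 19-base targets are printed because a siRNA can also act on other RNAs through its seed, with the target bases that pair with the seed in capitals.
si-PRMT1-1, whose site occurs in *MEF2C* and *POU2F2* among those tested: gcaactccatgTTTCATAa
si-PRMT1-2, whose site occurs in no member: agacggtgttcTACATGGa
si-PRMT1-3, whose site occurs in *PRDM1* and *POU2F2* among those tested: ccatcgacctgGACTTCAa
The seed site of si-PRMT1-1 was found in the 3′ untranslated regions of 15 of 20 *MEF2C* transcripts and 1 of 11 *POU2F2* transcripts (GENCODE 29). The seed site of si-PRMT1-3 was found in 3 of 4 *PRDM1* transcripts and 1 of 11 *POU2F2* transcripts, and no *IRF4*, *POU2AF1*, *TCF3* or *PAX5* transcript held any of the 3 sites. Such sites were common, in 24.4%, 12.7% and 18.5% of the 10073 genes tested that have such a region. The median log2 fold change of genes with and without the site was 0.06 and -0.00 for si-PRMT1-1, 0.03 and 0.01 for si-PRMT1-2, and 0.02 and 0.01 for si-PRMT1-3. The part of these sites in the *MEF2C*, *PRDM1* and *POU2F2* values was not tested.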

How the data were processed

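RNA of 6 libraries labelled MM.1S, 3 control and 3 PRMT1 KD, was extracted with TRIzol and sequenced on an Illumina platform. The submitters' processing notes name featureCounts 1.5.0-p3 and the hg38 build, and aligner and strand setting are not given in the sources used here. Gene-level FPKM is what the authors deposited. Their divisor for a library was its median-of-ratios size factor times a constant, so a scaling between libraries is already part of the deposited FPKM. Values were tested as deposited. The coordinates of the 10 members equal those of GENCODE 29.

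Expression was tested with limma 3.58.1 in R 4.3.3 on log2(FPKM + 1) (two-sided, moderated with a trend of variance on level, Benjamini-Hochberg adjusted) over 13585 genes averaging 1 FPKM or more. The pseudocount of 1 understates changes of low genes. A gene is called at an adjusted p under 0.05, and intervals are at 95%. Single values were compared by exact permutation over 20 assignments. Library depth was 14439217 to 16465026 reads on genes. The fit was tested on simulated data. Voom was run in limma on reads worked back from FPKM. Alternatives changed the pseudocount, filter, scaling, variance model, tool, block and libraries, and leaving out both replicate 3 libraries was chosen after seeing the data. The genes named were the members, *PRMT1*, list genes with an adjusted p under 0.05, up to 4 more per list by control level, neighbours by coordinates and genes of the nearest pattern. The ones named beyond this, such as relatives under 1 FPKM or other genes of a small list, were named after their values were seen. Members and lists were chosen with earlier results of these data known. Sequences were read from RefSeq tables and the study's supplement. Values of a few list genes are left out here.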

Additional observations from a re-analysis of the deposited data

How the results depend on the processing

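*PRMT1* kept its direction and call in all 16 alternatives (log2 fold change -2.21 to -2.09). The number of members with an adjusted p under 0.05 was 0 as reported, 1 among genes with a mean of at least 5 FPKM, 1 after rescaling to TPM and 1 with a replicate block (*MEF2C* each time), and 2 with voom (*MEF2C* and *POU2F2*). With single libraries left out it was 0 throughout. The number with an unadjusted p under 0.05 was 4 and ran from 2 to 4 with a library left out, 2 without control replicate 2 or without PRMT1 KD replicate 1. Members without overlap between groups were 3 to 5 in the alternatives. The log2 fold change of *IRF4*, 0.00, turned to -0.013 with median scaling and to -0.00045 without both replicate 3 libraries, and ran from -0.0039 to 0.014 with a library left out. That of *PAX5*, -0.06, ran from -0.16 to 0.027 with a library left out and was above 0 without control replicate 2 or without PRMT1 KD replicate 3. Genes called over the whole table were 279, against 35 of 34078 with no filter, 473 of 7710 with a mean of at least 5 FPKM, 43 without the variance trend, 927 with voom, 204 with the replicate block, 13 to 95 with a library left out and 21 with both replicate 3 libraries left out, and *SLAMF7* alone of the 8 list genes was called in every alternative. The causes were not tested, except that leaving out libraries leaves fewer of them. For the paired fit (replicate block), same-numbered libraries deviated together by correlations of 0.0200, 0.0631 and 0.101. Differently numbered libraries had lower values, from -0.0751 to 0.0186. All these values were small and the labels name no pairing, so the main fit held no block. Whether the numbers pair the libraries was not tested further. No difference was detectable for *BACH2* and *EBF1* at this depth, and the fit with no filter gave *SPIB* a log2 fold change of 0.08 (95% interval -0.11 to 0.26, limma adjusted p = 0.714).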

Other observations

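Over the 801 genes tested that the deposited table assigns to a transcription factor family, 18 (2.25%) had an adjusted p under 0.05 by limma, 15 higher and 3 lower in PRMT1 KD, against 2.05% of all 13585 genes tested, 145 higher and 134 lower. The split over all genes tested depended on the processing. With median scaling 90 of 235 called genes were higher, and after rescaling to TPM 222 of 355. Without the variance trend 15 of 43 were higher. With an unadjusted p under 0.05, 126 of the 801 were higher and 37 lower, against 1368 (10.1%) and 1287 (9.47%) of all genes tested. Among the 7 members tested, 3 were lower and 1 higher by the same measure. The median log2 fold change of the 801 genes was 0.05, against 0.01 over all genes. This comparison was chosen after the data were seen and no test was run on it.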
